A study of Mus musculus with 9 samples.

Results

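The miR-101 family of the mouse was represented by 3 of the 1164 miRNA entries in the count table, mmu-miR-101a, mmu-miR-101b and mmu-miR-101c. The 3 entries were chosen by name, together with a measured property: the counts of mmu-miR-101a and mmu-miR-101c were identical in each of the 9 libraries, so the family held 2 distinct sets of values and the shared set was counted once. The family was also picked with the fall of miR-101a in Bbs4-/- vesicles already known. Its levels and fold changes are therefore given as descriptions, and the adjusted p-values beside them, which come from fits over all miRNAs tested, are not independent evidence.

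Small RNA came from small extracellular vesicle (smEV) pellets released by immortalised kidney medullary (KM) cells, epithelial lines from mice that are wild-type (WT), lack Bbs4 (a subunit of the BBSome, the coat complex of ciliary trafficking) or lack Bbs6 (also called Mkks, a chaperonin-like protein needed to assemble the BBSome). All cells, WT included, had been kept without serum for 24 h, which induces cilia. Each genotype was 1 cell line with 3 libraries, so genotype and line cannot be told apart, and a lower level in a pellet does not separate fewer loaded vesicles from fewer copies per vesicle. Libraries carry the replicate numbers of the deposited table, which are 1, 3 and 4 for WT, 1, 2 and 3 for Bbs4-/-, and 2, 3 and 4 for Bbs6-/-.

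miRNAs guide the silencing complex to messenger RNAs mainly through their seed, bases 2 to 8 from the 5′ end. miR-101 is conserved among vertebrates and is best known as a repressor of Ezh2, the methyltransferase of the Polycomb repressive complex, and it is often described as lost in carcinomas. Because small shifts of the 5′ end change the seed, the annotated ends of the family members matter to which targets they are assigned.

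The RefSeq mature sequences of miR-101a-3p and miR-101c in GRCm38.p6 overlap, and the sequences are printed here with bases 2 to 8 in capitals:
mmu-miR-101a-3p: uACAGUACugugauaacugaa
mmu-miR-101b-3p: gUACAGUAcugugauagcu
mmu-miR-101c: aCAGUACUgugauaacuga

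The annotated miR-101c, 19 bases long, lay entirely inside the 21 bases of miR-101a-3p, starting 1 base further in. A read of that stretch matches both entries. Whether this overlap gave the identical counts of miR-101a and miR-101c was not tested. miR-101b-3p, also 19 bases long, was annotated as starting 1 base before miR-101a-3p. Over the 18 bases that both cover, it differed from miR-101a-3p by the single substitution A16G, with positions counted from 1 at the 5′ end of miR-101a-3p. The longest run that miR-101a-3p and miR-101b-3p shared was 15 bases. By the length limit that the authors set at adapter trimming, the reads they kept were longer than that. How many reads, if any, were counted for both was not tested. By the annotated ends the seeds were 3 different windows of 1 sequence, ACAGUAC in miR-101a-3p, UACAGUA in miR-101b-3p and CAGUACU in miR-101c.

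The other arms were less alike. miR-101a-5p and miR-101b-5p differed at 5 of 22 aligned bases (A3G, C11U, A12G, G15A and U17C, with positions counted from 1 at the 5′ end of miR-101a-5p) and shared no run longer than 7 bases:
mmu-miR-101a-5p: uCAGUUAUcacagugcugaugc
mmu-miR-101b-5p: uCGGUUAUcaugguaccgaugcu
The entries of the table name no arm, and for a miRNA with several entries the authors kept the largest count, so the counts cannot be assigned to the 3′ or the 5′ arm from the table alone.

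The genes lie on 3 chromosomes. In the GENCODE vM21 annotation of GRCm38, Mir101a (ENSMUSG00000065451.1) is at chr4:101346945-101347027 on the minus strand, overlapping an exon of the long non-coding RNA E130102H24Rik on the same strand. Mir101b (ENSMUSG00000065556.1) is at chr19:29135279-29135375 on the plus strand, in intron 8 of 8 of Rcl1, a protein-coding gene for a ribosomal RNA processing factor, on the same strand. Mir101c (ENSMUSG00000106183.1) is at chr9:3038669-3038743 on the minus strand in no other annotated gene, 353 bp from Gm10715. The RefSeq miRNA table held no other miRNA gene within 10 kb of any of the 3, so none of them had a miRNA cluster partner to compare with. The hairpins of Mir101a and Mir101b, with the 3′ arm in capitals, shared a run of 20 bases that covers most of that arm:
Mir101a hairpin: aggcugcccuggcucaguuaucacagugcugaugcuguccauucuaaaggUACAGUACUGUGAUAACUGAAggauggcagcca
Mir101b hairpin: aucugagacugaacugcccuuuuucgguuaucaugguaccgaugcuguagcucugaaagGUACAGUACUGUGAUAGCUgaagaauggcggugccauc

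The total miRNA count was 64118 to 130905 in the WT libraries, 176935 to 457163 in Bbs4-/- and 192654 to 423784 in Bbs6-/-, so depth moved with genotype. Of the 1164 entries, 469 had a count and 177 had one in every library, all 3 family entries among them. Levels are given as CPM, the count scaled to a library of standard size with edgeR's TMM factors. On this scale 3 counts, taken as the largest expected count that an observed count of 0 allows, stood for 6.98 to 36.5 CPM. Markers of epithelium were present (5 of 5 with counts, a summed 9990 to 13300 CPM in WT, 17000 to 18900 in Bbs4-/- and 16600 to 21400 in Bbs6-/-), but miR-200c had only 1 or 2 counts and miR-141 none in WT. Kidney tubule markers had 4 of 4 with counts (26200 to 32800 CPM in WT, 44500 to 47400 in Bbs4-/- and 26500 to 34500 in Bbs6-/-), nearly all of it miR-30a, which is widely expressed, while miR-192 had 3 to 51 counts and miR-215 at most 4. Blood cell markers (5 of 5) summed to 34.2 to 170 CPM in all libraries, the liver marker miR-122 to 0 to 85.1 CPM, mesenchymal markers (2 of 4, miR-145a and miR-214 at 0) to 20.0 to 273 CPM, and neuronal markers (2 of 2) to 12.6 to 467 CPM. Striated muscle markers (3 of 3) summed to 853 to 2380 CPM, nearly all of it miR-206. The part of these differences in the results was not tested. The log2 CPM of Bbs6-/- replicate 2 correlated less with replicates 3 and 4 (r = 0.934 and 0.941) than these did with each other (r = 0.971).

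miR-101a, and with it miR-101c, was carried at a lower level by the smEVs of both mutants than by WT smEVs. In WT the level was 425.5 CPM in replicate 1, 623.4 CPM in replicate 3 and 478.4 CPM in replicate 4. In Bbs4-/- it was 101.1, 147.8 and 86.1 CPM in replicates 1, 2 and 3. In Bbs6-/- it was 22.0 CPM in replicate 2, 140.1 CPM in replicate 3 and 257.6 CPM in replicate 4. Every mutant library was below every WT library, and the Bbs4-/- values lay inside the wide range of Bbs6-/-. Of all miRNAs tested, 11.0% were lower without overlap in Bbs4-/- and 11.7% in Bbs6-/-. The share lower in both mutants was not computed, so nothing is read from the separation. The fall in Bbs6-/- had an adjusted p of 0.143 (edgeR).

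These levels rest on modest counts. The 3 WT libraries held 35, 70 and 74 counts of miR-101a, the Bbs4-/- libraries 16, 33 and 37, and the Bbs6-/- libraries 4, 41 and 90. Although the WT libraries were the shallowest, they held 179 counts in all against 86 in Bbs4-/- and 135 in Bbs6-/-. Counting error alone gave Bbs6-/- replicate 2 an exact Poisson 95% interval of 5.98 to 56.2 CPM, below the interval of replicate 3 (100.6 to 190.1 CPM) and that of replicate 4 (207.1 to 316.6 CPM). The spread among the Bbs6-/- pellets was thus larger than counting error, with a coefficient of variation of 84.2% against 28.8% in Bbs4-/- and 20.1% in WT. In rank by count, miR-101a stood at 76 to 88 in the WT libraries, at 129 or lower in the list in Bbs4-/- and at 103 or lower in Bbs6-/-.

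With TMM scaling, miR-101b showed no such separation of mutants from WT. Its WT level was 936.1 CPM in replicate 1, 1122 CPM in replicate 3 and 1196 CPM in replicate 4. Bbs4-/- had 1094, 945.1 and 954.5 CPM in replicates 1, 2 and 3, within the WT range. Scaled by total counts alone, however, the Bbs4-/- libraries (896.8 to 989.9 CPM) were all below WT (1186 to 1413 CPM). That scaling shifted the log2 fold changes of Bbs4-/- against WT by a median of -0.16 over all miRNAs. The share of miRNAs lower without overlap under it was not computed, so nothing about miR-101b is read from this. With TMM, Bbs6-/- had 2009 CPM in replicate 2, 1206 CPM in replicate 3 and 1116 CPM in replicate 4, so the library lowest in miR-101a was the highest in miR-101b. It ranked 52 to 71 by count in the 9 libraries. The mean was 1085 ± 134 CPM in WT, 998 ± 83.2 CPM in Bbs4-/- and 1444 ± 491 CPM in Bbs6-/- (SD, n = 3 each), and Bbs4-/- and WT, neighbours in this order, did not differ beyond their spread.

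**Figure D1:**
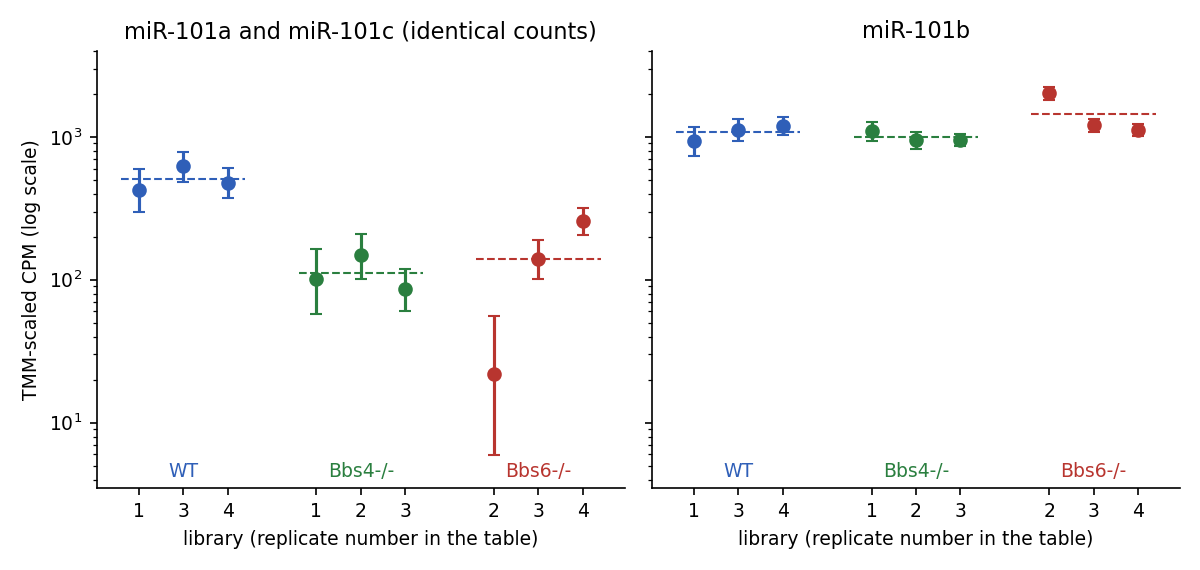
Level of miR-101a with miR-101c (left) and miR-101b (right) in each library, as TMM-scaled CPM on a log axis; points are libraries, bars exact Poisson 95% intervals of the count, dashed lines the mean of each genotype. miR-101a is at 425.5 CPM or more in WT and at 257.6 CPM or less in the mutants, while miR-101b lies between 936.1 and 2009 CPM throughout.

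Between WT and Bbs4-/- smEVs, the fitted log2 fold change of the shared miR-101a and miR-101c counts was -2.30, a 4.91-fold fall with a standard error of 0.377 and a 95% interval of -3.10 to -1.49. The mean went from 509 ± 102 CPM to 112 ± 32.2 CPM (SD, n = 3 each). The adjusted p was 0.000857 by edgeR's quasi-likelihood test. A miRNA was called at an adjusted p under 0.1 with a log2 fold change of 2 or more in size, and by this rule 2.27% of the 308 miRNAs tested were called lower. miR-101a and its duplicate, miR-101c, are 2 of those 7 calls but 1 set of values. Their Bbs4-/- and WT libraries did not overlap, which was the case, with the mutant lower, for 11.0% of the miRNAs tested. Since this contrast was known when the family was chosen, nothing is read from these shares. 18 other miRNAs had a lower fold change.

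For miR-101b the log2 fold change in Bbs4-/- was -0.24 (standard error 0.246), with an adjusted p of 0.573 (edgeR), and with total counts it was -0.41 (adjusted p = 0.249, edgeR). The 95% interval ran from -0.77 to 0.29, so it did not reach the size of the change of miR-101a, whose own interval ended at -1.49.

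Between WT and Bbs6-/- smEVs, the shared counts changed by -1.77 (log2, standard error 0.672, 95% interval -3.29 to -0.26). The mean went from 509 ± 102 CPM to 140 ± 118 CPM (SD, n = 3 each). The adjusted p was 0.143 (edgeR) and the fold was under the limit, so no family member was called lower, where 1.34% of 298 miRNAs were. The adjusted p was lower with similar folds, still under the limit, in DESeq2 (-1.81, adjusted p = 0.0264), without the filter on low counts (-1.79, adjusted p = 0.00173, edgeR) and in a fit of all 9 libraries (-1.83, adjusted p = 0.0554, edgeR). The libraries did not overlap, as for 11.7% of the miRNAs tested. This result depended on the Bbs6-/- libraries: without replicate 4 it was called, at -2.57 (adjusted p = 0.0425, edgeR), and without replicate 2, the library with 4 counts, it was smaller at -1.28 but had an adjusted p of 0.0283 (edgeR). Scaling by total counts without TMM, which moved the median of all miRNAs by -0.40, gave -2.26 and a call (adjusted p = 0.0566, edgeR). For miR-101b the log2 change was 0.42 (standard error 0.269, 95% interval -0.19 to 1.02, adjusted p = 0.42, edgeR), and 0.04 with total counts. Both contrasts use the same 3 WT libraries.

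**Figure D2:**
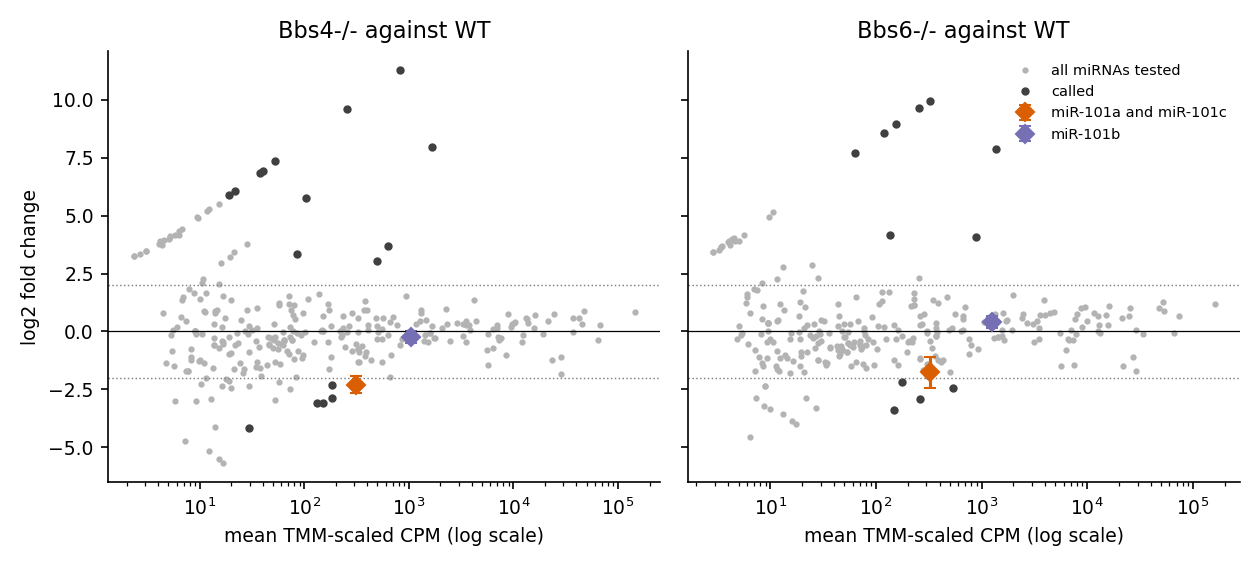
Log2 fold change against WT (y axis) by mean TMM-scaled CPM (x axis, log scale) for every miRNA tested in Bbs4-/- (left, 308) and Bbs6-/- (right, 298); dark points were called, diamonds with standard error bars mark miR-101a with miR-101c and miR-101b, and dotted lines are the fold limits of a call. miR-101a lies below the lower limit in Bbs4-/- at -2.30 and above it in Bbs6-/- at -1.77, and miR-101b lies near 0 in both.

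Whether miR-101 differed between the mutants was asked in a direct contrast, since both earlier comparisons share the WT libraries. For miR-101a the log2 fold change of Bbs4-/- over Bbs6-/- was -0.36 (standard error 0.588, adjusted p = 0.804, edgeR). Its 95% interval, -1.62 to 0.90, spans differences in both directions, and the value was 0.41 without Bbs6-/- replicate 4. For miR-101b it was -0.53 (standard error 0.266, 95% interval -1.10 to 0.04, adjusted p = 0.362, edgeR). With TMM scaling all Bbs4-/- libraries were below all Bbs6-/- libraries in miR-101b, at 1094 CPM or less against 1116 CPM or more. With total counts they overlapped, since Bbs6-/- replicate 4 was at 920.3 CPM. With TMM, 7.77% of the miRNAs tested were lower without overlap in the same way. No family member was among the 3.88% of 309 miRNAs called in this contrast.

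**Figure D3:**
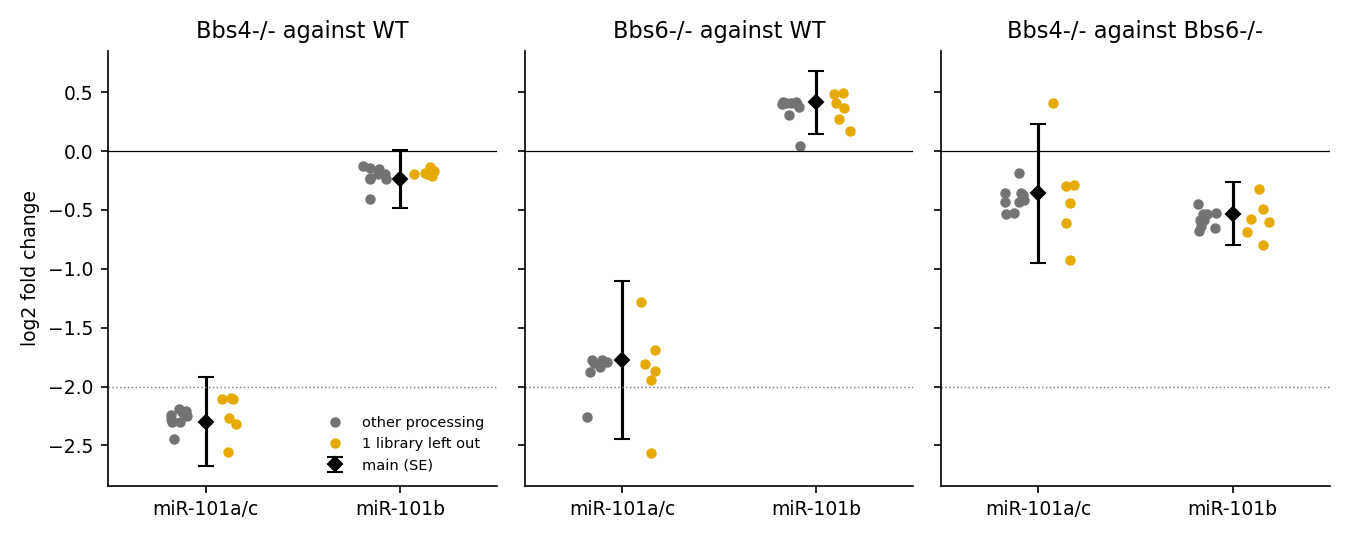
Log2 fold changes of miR-101a with miR-101c and of miR-101b in the 3 contrasts; diamonds are the reported values with standard errors, grey points the other ways of processing, yellow points the fits with 1 library left out. In Bbs4-/- against WT all values of miR-101a lie between -2.56 and -2.10, while in Bbs6-/- against WT they spread from -2.57 to -1.28.

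The ratio of miR-101a to miR-101b within a library does not depend on depth or scaling, but it uses the same counts as the contrasts and is no independent evidence. In WT, miR-101a made up 31.2% of the counts of both in replicate 1 (exact Clopper-Pearson 95% interval 22.8 to 40.7%), 35.7% in replicate 3 (29.0 to 42.9%) and 28.6% in replicate 4 (23.2 to 34.5%). In Bbs4-/- the share was 8.47% in replicate 1 (4.92 to 13.4%), 13.5% in replicate 2 (9.50 to 18.5%) and 8.28% in replicate 3 (5.89 to 11.2%). In Bbs6-/- it was 1.08% in replicate 2 (0.295 to 2.74%), 10.4% in replicate 3 (7.57 to 13.9%) and 18.8% in replicate 4 (15.4 to 22.5%). WT vesicles thus held 1.80 to 2.50 counts of miR-101b for each of miR-101a, Bbs4-/- vesicles 6.39 to 11.1, and Bbs6-/- vesicles 4.33 to 91.5. No interval of a mutant library reached that of a WT library, and the 3 Bbs6-/- intervals did not overlap each other. How many other miRNAs separate in this way when set against miR-101b was not computed, so nothing is read from the separation. These intervals cover counting error only.

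**Figure D4:**
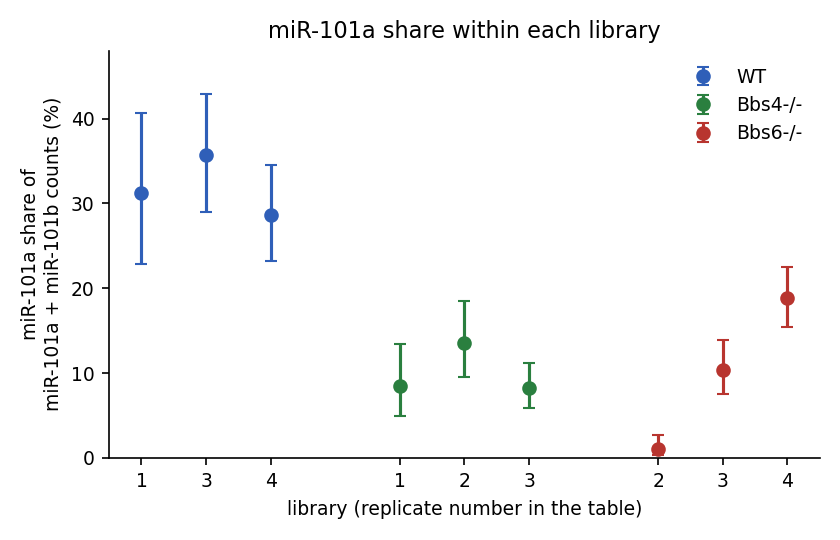
Share of miR-101a in the summed counts of miR-101a and miR-101b, in percent, for each of the 9 libraries; bars are exact 95% binomial intervals. WT libraries lie at 28.6 to 35.7%, Bbs4-/- at 8.28 to 13.5% and Bbs6-/- at 1.08 to 18.8%.

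The mean share was 31.8 ± 3.59% in WT, 10.1 ± 2.96% in Bbs4-/- and 10.1 ± 8.86% in Bbs6-/- (SD, n = 3 each). On the log2 scale the ratio of miR-101a to miR-101b was lower than in WT by 2.09 in Bbs4-/-, a 4.26-fold change of the ratio, and by 2.81 in Bbs6-/-, 7.01-fold. The Bbs6-/- difference was -1.51 without replicate 2, the library with 4 counts, and ranged from -3.71 to -1.51 with 1 library left out. Each gave p = 0.1 in an exact two-sided permutation test, the smallest p that 3 against 3 libraries allow, and 0.15 after Benjamini-Hochberg adjustment over the 3 pairs. The mutants did not separate, with a difference of 0.72 for Bbs4-/- minus Bbs6-/- (exact permutation p = 0.9). Over all 9 libraries the variation between genotypes relative to that within them (F = 3.43) had p = 0.0821 in an exact permutation test over 280 partitions, whose smallest p is 0.00357. That value depended on Bbs6-/- replicate 2: without it F was 17.1 (exact permutation p = 0.0107). F was also larger with the share on the linear scale, at 14.2 (exact permutation p = 0.0357), and without Bbs6-/- replicate 4, at 6.79 (exact permutation p = 0.0107). It was smaller without any 1 WT library, at 2.00 to 2.39 (exact permutation p = 0.189 to 0.254), or any 1 Bbs4-/- library, at 2.78 to 3.06 (exact permutation p = 0.15 to 0.175), and 3.34 without Bbs6-/- replicate 3 (exact permutation p = 0.121). Since the fall of miR-101a in Bbs4-/- was known when the family was chosen, all p-values of the ratio are descriptions and no independent evidence.

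Added together, with the shared set counted once, miR-101a and miR-101b reached 1362 to 1745 CPM in WT, 1041 to 1195 CPM in Bbs4-/- and 1346 to 2031 CPM in Bbs6-/-. The Bbs4-/- libraries were all below WT, while the Bbs6-/- range lay across that of WT. Among single miRNAs, 11.0% of those tested were lower in Bbs4-/- without overlap, and miR-101a, part of this sum, is among them. The means of the sum were 1594 ± 204, 1110 ± 78.3 and 1584 ± 388 CPM (SD, n = 3 each).

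The Pearson correlation of miR-101a with miR-101b was -0.564 over 9 libraries from 3 lines, but its sign rested on Bbs6-/- replicate 2, without which it was 0.25. Over the 9 libraries the median over the 307 other miRNAs compared with miR-101a was -0.073. The miRNAs most like miR-101a over these libraries were miR-1843a (r = 0.894), miR-6944 (0.874), miR-872 (0.871), miR-615 (0.843) and miR-6538 (0.828). All 5 had their highest mean in WT. miR-615, the one nearest to it in WT level, averaged 467.5 CPM in WT, 200.8 CPM in Bbs4-/- and 55.6 CPM in Bbs6-/-. Once the mean of each genotype was taken out, r was 0.94 for miR-615 and 0.432 for miR-6538. With the genotype means kept but Bbs6-/- replicate 2 left out, r was 0.653 for miR-615 and 0.821 for miR-6538. The r within genotypes was not recomputed without that library, so how far it rests on it was not tested. The miRNAs most like miR-101b were miR-27a (r = 0.817), miR-335 (0.793), miR-1895 (0.758), miR-181d (0.714) and miR-5121 (0.688), and all 5 had their highest mean in Bbs6-/-. For each of them Bbs6-/- replicate 2 was the highest library. Without it r was 0.472 for miR-27a, 0.414 for miR-335, 0.735 for miR-1895, 0.661 for miR-181d and -0.01 for miR-5121, while for the 5 miRNAs most like miR-101a it was 0.653 to 0.85. The entry mmu-miR-1895, at 0 to 27.4 CPM, lay around the level of 3 counts. So did miR-6944, which averaged 27.5 CPM in WT, 5.15 CPM in Bbs4-/- and 11.6 CPM in Bbs6-/-. The libraries share depth differences and genotype, so these correlations are descriptions.

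Other miRNAs with the 6-base core of the family seed, ACAGUA, within their first 8 bases were miR-144, a red cell miRNA, and miR-199a and miR-199b, which are typical of mesenchyme. The core is in capitals:
mmu-miR-144-3p: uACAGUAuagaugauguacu
mmu-miR-199a-3p: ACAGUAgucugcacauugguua
mmu-miR-199b-3p has the same sequence as mmu-miR-199a-3p, and the counts of the entries miR-199a and miR-199b were identical too. miR-144 had 11 counts in 3 of 9 libraries and miR-199a 16 counts in 6 of 9, with no library above 5 counts. None was called in any contrast (adjusted p = 0.498 to 0.93, edgeR). Over all miRNAs 6.17% were called in Bbs4-/-, 4.03% in Bbs6-/- and 3.88% between the mutants. With so few counts the standard errors were 1.41 to 2.23 (log2), so nothing is read from the absence of a call. The entries name no arm, so these counts may hold reads of the other arm.

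Ezh2 is also repressed by the let-7 family, miR-26 and some other miRNAs, and 26 entries of these were looked at beside miR-101. Of these, 21 had a count, and 15 were tested in Bbs4-/- and 16 in Bbs6-/-. None was called higher or lower in either mutant, or among the 16 tested between the mutants. Over all miRNAs 6.17% were called in Bbs4-/-, 4.03% in Bbs6-/- and 3.88% between the mutants, so a count of 0 in a list of this size is near the background. Between the mutants the median was -0.29, and 1 entry (let-7g, -0.63) was lower in Bbs4-/- at an adjusted p of 0.0623 (edgeR), where 3.88% of all miRNAs were lower at an adjusted p under 0.1. At an adjusted p under 0.1 without the fold limit, 4 were higher and none lower in Bbs4-/- (among all miRNAs 8.77% were higher), and 8 were higher and none lower in Bbs6-/- (9.73%). The median log2 fold change of the list was 0.36 in Bbs4-/- and 0.83 in Bbs6-/-, against -0.02 and -0.01 over all miRNAs tested. let-7f, the most abundant of them, averaged 58250 CPM in WT, 77260 in Bbs4-/- and 89780 in Bbs6-/-, with a log2 change of 0.29 for Bbs4-/- (adjusted p = 0.406, edgeR) and 0.66 for Bbs6-/- (adjusted p = 0.0614, edgeR). let-7a rose in both mutants, by 0.58 (log2) in Bbs4-/- (adjusted p = 0.074, edgeR) and 1.01 in Bbs6-/- (adjusted p = 0.0374, edgeR), without reaching the fold limit. For let-7c the log2 change was 0.31 in Bbs4-/- (adjusted p = 0.365, edgeR) and 0.87 in Bbs6-/- (adjusted p = 0.0848, edgeR). For let-7b it was 0.45 (adjusted p = 0.192, edgeR) and 1.00 (adjusted p = 0.0865, edgeR). The lowest values of the list were -0.10 in Bbs4-/- (let-7g) and -0.46 in Bbs6-/- (miR-98, adjusted p = 0.254, edgeR). miR-26a had 8552 CPM in WT, far above miR-101b, and its log2 change was 0.36 for Bbs4-/- (adjusted p = 0.288, edgeR) and 0.80 in Bbs6-/- (adjusted p = 0.0417, edgeR). Members of the let-7 family differ by few bases, so counts can be split among them. The entries let-7a-1 and let-7c-2 had identical counts in each library, so the numbers tested and the medians of the list hold these values in duplicate. miR-214 had no count and miR-124 only 2 counts in all 9 libraries.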

How the data were processed

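Small RNA was sequenced from 9 smEV libraries, 3 for each genotype. Per the paper's methods, the authors trimmed adapters with cutadapt 1.9, removed reads with low-quality calls, collapsed reads identical in sequence and unique molecular identifier, trimmed the identifiers, dropped reads under 15 nucleotides and counted miRNAs with miRDeep2, keeping the largest count where a miRNA had more than 1 entry. As deposited, the values are raw counts with no normalization. The genome build of that step is not given in the sources used here; the submitters' processing notes name GRCm38. Columns were tied to a genotype by name and to no labelled replicate.

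Counts were fitted in R 4.3.3 with edgeR 4.0.16 (TMM, quasi-likelihood test, Benjamini-Hochberg), each mutant against WT on its 6 libraries (minimum total 6 counts), the mutants against each other on all 9 (minimum total 9). Correlations used log2 CPM with a prior count of 2. Standard errors were derived from the fold change and F. The paper describes the pellets as independent. Ratios were compared by exact permutation tests (python 3.11.15, scipy 1.17.1). Scripts were tested on simulated data. Alternatives included DESeq2 1.42.0. The members and lists were chosen with earlier results of these data known. Named miRNAs are the members, the let-7, miR-26 and other Ezh2 list, seed relatives, and the 5 most correlated with each member. Sequences are RefSeq's (GRCm38.p6), positions GENCODE vM21's.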

Additional observations from a re-analysis of the deposited data

How the results depend on the processing

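Of 182 values under the alternatives, 172 were labelled as unchanged. For fold changes this meant the same direction and the same side of the rule for a call. For F it meant the same side of its p threshold. Counts of calls had to stay within 1.5 times, and ratio differences and the correlation had to keep their direction only. The stricter limit on the adjusted p reused the main fits, so its fold changes were the same by design. The fall of miR-101a in Bbs4-/- was called under each alternative run, from -2.45 to -2.19 with other processing and from -2.56 to -2.10 with 1 library left out. In Bbs6-/-, miR-101a was called with total counts in place of TMM (-2.26) and ranged from -2.57 to -1.28 with 1 library left out; the cause was not tested. Between the mutants it ranged from -0.92 to 0.41 with 1 library left out, turning sign without Bbs6-/- replicate 4, and the number of miRNAs called ranged from 7 to 17, with 7 without Bbs4-/- replicate 1. The difference in the log2 ratio of miR-101a to miR-101b between the mutants turned to -0.33 with medians and ranged from -0.58 to 1.62 with 1 library left out. F over the 3 genotypes was 14.2 with linear shares and ranged from 2.00 to 17.1 with 1 library left out (F could not be formed from medians). No paired analysis was possible because the replicate numbers of the columns differ from those of the sample labels for Bbs6-/- and WT. The correlation of miR-101a with miR-101b, recomputed with 1 library left out after the data had been seen, ranged from -0.695 to 0.25, and 0.25 was the value without Bbs6-/- replicate 2. miR-101a rested on 4 counts in 1 Bbs6-/- library and on 16 to 90 in the other mutant libraries.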
